A study of Mus musculus with 6 samples.

Results

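The transcriptome described here is that of the tibialis anterior (TA) muscle of old mice that received vehicle alone, the control arm of a study of BML-260, a small molecule used to inhibit the phosphatase DUSP22. The libraries were chosen by their labels, and they are the 3 vehicle libraries of the 6 in the series. The mice were male C57BL/6J animals labelled as 24 months old, and the study's text gives somewhat higher ages. They were injected intraperitoneally once a day for 1 month with the DMSO and Tween 80 solution in which the drug was given. Each library came from the whole muscle of 1 mouse and was made from total RNA with a stranded kit that removes ribosomal RNA. The other 3 libraries, from mice given BML-260, were not compared here. No young or untreated mice are among the samples, so no level below can be assigned to age or to the injections.

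The TA is a limb muscle of the fast type, which lifts the foot. Its fibers are packed with sarcomeres, the contractile units in which myosin thick filaments pull on actin thin filaments when calcium, released from the sarcoplasmic reticulum, binds to troponin. Fast fibers draw their ATP mainly from creatine phosphate and glycolysis, slow fibers mainly from mitochondria, and the paralogs of the contractile proteins differ between them. Levels are given in TPM, a number of transcripts per 1000000, which is scaled for transcript length, so that genes can be compared with each other. Within a library TPM is a share of a fixed total of 1000000, so a few abundant genes move the values of all others. Where 3 values follow a gene, they belong to replicates 1, 2 and 3 in this order, and ± is the SD with n = 3.

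The libraries held 47814115, 39793301 and 52165766 counts, and replicate 3 stood apart from the other libraries. The Pearson correlation of log2(TPM + 1) over 16800 genes was 0.989 between the first pair of libraries, while replicate 3 reached 0.963 with replicate 1 and 0.965 with replicate 2. Of the 5507 genes at a mean of at least 10 TPM, 20.1% were highest in replicate 1, 7.01% in replicate 2 and 72.9% in replicate 3. Part of this lay in the scale, because with counts scaled by TMM, a factor that centers the bulk of genes, those shares were 39.8%, 24.5% and 35.7%. The median of log2(TPM over the mean of the libraries) was -0.10, -0.25 and 0.28, against 0.050, -0.017 and -0.047 on the TMM scale. Counts of genes highest in replicate 3 are therefore given on both scales. They are to be read against the 72.9% and 35.7% of all these genes. Ratios and steadiness of single genes are in TPM. A gene with equal TPM in all libraries can lie lower in replicate 3 on the TMM scale. The RNA matched the label of a male animal in every library. The Y-linked genes Ddx3y, which encodes an RNA helicase, and Eif2s3y, which encodes a translation initiation factor, were at 52.6, 47.6 and 87.8 TPM and at 36.9, 53.5 and 73.8 TPM. Xist, the RNA of the inactive X chromosome, had 3, 0 and 3 counts.

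A small number of genes held most of the TPM. The 10 highest genes of each library held 41.9%, 46.4% and 36.3% of its TPM (mean 41.5% ± 5.06), the 100 highest held 68.0%, 71.5% and 58.5%, and the 500 highest held 80.2% ± 3.80. It took 15, 13 and 40 genes to reach 50% of TPM, so that replicate 3 was the least concentrated library. Of the 16800 genes with a TPM value, 11455 reached 1 TPM in every library, 10422 of them protein-coding. At least 10 TPM was reached in every library by 4613 genes, at least 100 TPM by 594, at least 1000 TPM by 56 and at least 10000 TPM by 13. Rank was stable at the top and less so below it. Of the genes among the 10 highest of a library, 8 were shared by all 3 libraries, and 65 genes were among the 100 highest of every library, of 134 that were there in any.

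**Figure D1:**
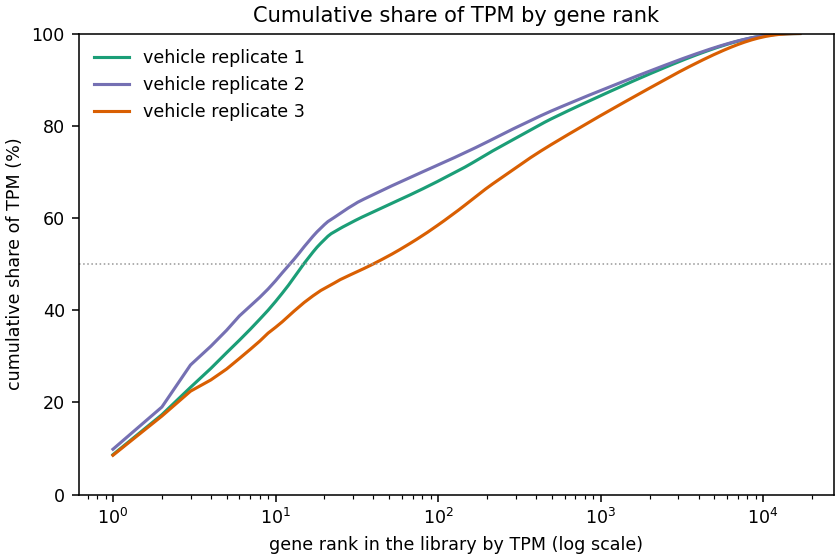
The share of TPM (y axis, %) held by the highest genes of each vehicle library, summed from rank 1 downwards (x axis, gene rank on a log scale), with a dotted line at 50%. Replicates 1 and 2 cross the line at 15 and 13 genes and replicate 3 at 40.

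The 2 highest genes encode 7SL RNA, the RNA scaffold of the signal recognition particle, which docks ribosomes that make secreted and membrane proteins at the endoplasmic reticulum. Rn7s2 was at 86657, 91481 and 85264 TPM and Rn7s1 at 86604, 91125 and 84898 TPM. Both genes ranked between 1 and 3 in every library and differed by only 1.07-fold between the highest and the lowest library. They are separate genes whose annotated transcripts are identical over all 300 bases, so a read within them cannot be assigned to either gene. The ratio of Rn7s1 to Rn7s2 reads was 0.999, 0.996 and 0.996. Together these genes were listed with 17.6% ± 0.642 of TPM but only 3.03% ± 0.315 of reads, since TPM divides by a short length. How reads that match both genes were counted is not given in the sources. Had each such read been counted for both genes, these sums would be too high. The same holds for the shares of the highest genes given above. This was not tested. Rn7sk, whose 7SK RNA holds the elongation factor P-TEFb inactive, followed on rank 5 with 27268, 34591 and 24357 TPM. Rmrp, the RNA of RNase MRP, which processes ribosomal RNA precursors, was at 2450, 2333 and 3616 TPM (rank 30).

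The next genes belong to the mitochondrial genome and to the contractile apparatus. Acta1, which encodes skeletal muscle actin, was the highest nuclear protein-coding gene, at 23787, 21568 and 19795 TPM (mean 21717 ± 2000, rank 7 in every library). It was followed by Tnnt3, the fast troponin T that ties troponin to tropomyosin, at 19443, 17308 and 23582 TPM. Mylpf, the fast regulatory myosin light chain, was at 18895, 17795 and 12509 TPM, highest in replicate 1 and lowest in replicate 3. Ckm, the muscle creatine kinase that regenerates ATP from creatine phosphate, fell in the same order from 21556 through 15415 to 11991 TPM. The other nuclear protein-coding genes among the 30 highest genes were Tnni2, Tpm1, Aldoa, Myl1, Tnnc2, Myh4, Pvalb, Atp2a1, Eno3, Myh1, Slc25a4, Tcap and Mb. Reads gave a different order, led by the longest transcripts. Ttn, the giant spring protein titin, took 8.54% of reads and ranked highest by that measure, but at 1092, 1855 and 1863 TPM it was rank 42 by level.

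By gene class, nuclear protein-coding genes held 59.1%, 52.4% and 65.6% of TPM (mean 59.1% ± 6.59) and 81.8% of reads. Mitochondrially encoded genes held 18.7%, 23.8% and 12.6% of TPM, most in replicate 2 and least in replicate 3. Nuclear snRNA, nearly all of it 7SK, held 2.95% ± 0.534. Long noncoding RNA had 1413 genes but only 0.577% ± 0.131 of TPM, and pseudogenes had 1386 genes and 0.821% ± 0.0525. Small nucleolar and guide RNA held 0.188% ± 0.00741 and microRNA hairpins 0.0276% ± 0.00453. Malat1, a nuclear noncoding RNA of speckles, led its class at 926, 1679 and 2210 TPM, lowest in replicate 1 and highest in replicate 3. H19, an imprinted RNA that is abundant in embryonic muscle, was at 50.6, 106 and 149 TPM, and Neat1, the scaffold of paraspeckles, was at 39.7, 145 and 117 TPM. Gas5, a host gene of small nucleolar RNAs, was at 63.2 and 64.1 TPM in replicates 1 and 2 and at 223 TPM in replicate 3. Ribosomal RNA was listed under Rn18s-rs5, a copy related to 18S rRNA, at 547, 490 and 109 TPM.

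**Figure D2:**
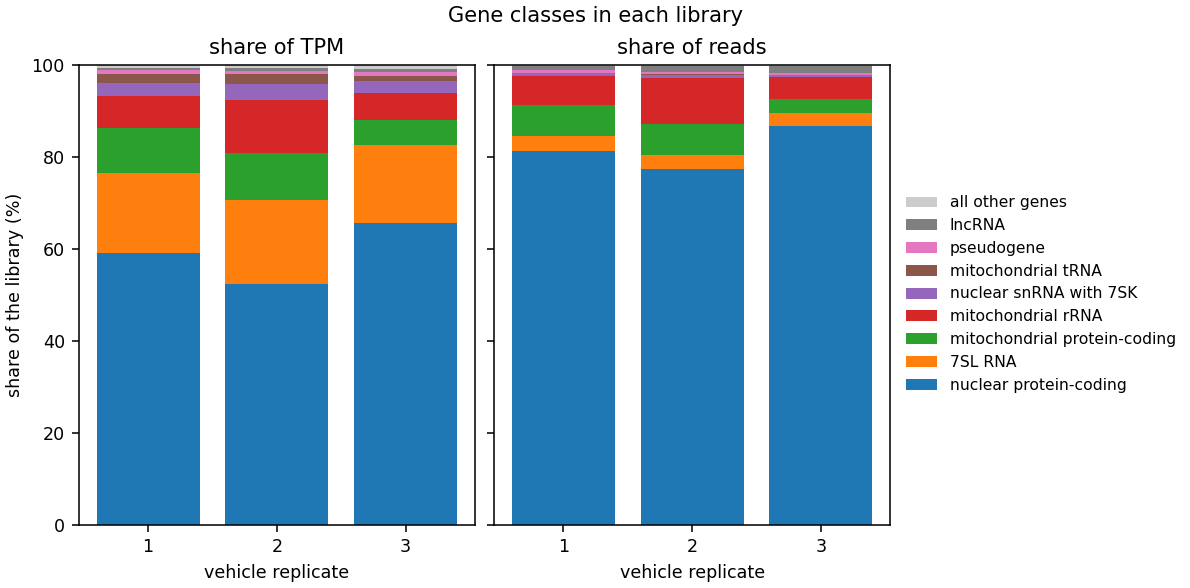
Stacked bars of the share (y axis, %) of each vehicle library (x axis) held by each gene class, in TPM on the left and in reads on the right. The share of nuclear protein-coding genes is larger in reads than in TPM in every library, and the mitochondrial classes are smallest in replicate 3.

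The mitochondrial genome encodes 13 subunits of the respiratory chain and its own ribosomal and transfer RNAs. All 35 of its genes with a value passed 1 TPM in every library. mt-Rnr2, the large ribosomal RNA of mitochondria, was at 59321, 98458 and 53842 TPM, and mt-Rnr1, the small one, was at 10507, 17992 and 5883 TPM. Both were highest in replicate 2, and the kit is designed to remove such RNA, so their level is that of what remained. The ratio of mt-Rnr2 to mt-Rnr1 was 5.65 and 5.47 in replicates 1 and 2 and 9.15 in replicate 3. Among the protein-coding genes, COX1 (40955, 40518 and 22991 TPM) and COX3 (33998, 31198 and 17276 TPM), both subunits of cytochrome c oxidase, together held 74.0% ± 2.67 of their TPM. COX2, the other catalytic core subunit, was at 7290, 7457 and 3690 TPM. ND1, a core subunit of complex I, was at 3590, 4472 and 1996 TPM. ATP6 of ATP synthase was at 3359, 4115 and 2006 TPM and CYTB of complex III at 2715, 4474 and 1654 TPM. None of the 13 protein-coding genes was highest in replicate 3, on either scale, while 10 were highest in replicate 2 in TPM and 12 with TMM. Levels within this genome were far from equal, and COX1 was 428-fold ± 110 above ND6, a complex I subunit encoded on the opposite strand from the others.

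The transfer RNA TrnS1, which carries serine, was listed at 17077, 18653 and 11082 TPM and ranked 12, higher than every glycolytic enzyme. It held 92.2% ± 0.723 of the TPM of the 20 mitochondrial transfer RNA genes with a value. Its annotated gene (GRCm38, chrM:6870-6938, minus strand) shares 3 bases with the end of COX1 (chrM:5328-6872, plus strand). The sequence is shown because of its rank and this overlap, with the shared bases in capitals.
TrnS1: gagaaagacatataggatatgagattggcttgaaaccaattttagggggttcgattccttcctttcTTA
TrnS1 had 1.86, 2.06 and 2.15 reads per 100 COX1 reads, so the pair kept nearly the same proportion while both differed between libraries. The sources do not say how the strand was used in counting, and without it reads of this gene and of COX1 cannot be told apart. The next transfer RNA, TrnY for tyrosine, was at 467, 353 and 219 TPM.

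Genes of the sarcomere, 68 with a TPM value, held 16.3%, 15.0% and 15.2% of all TPM (mean 15.5% ± 0.688). Of the TPM of nuclear protein-coding genes alone, they held 27.5%, 28.7% and 23.1%. The thin filament was the largest of its lists at 8.78% ± 0.639 of TPM. In it, Tnni2, the inhibitory subunit of fast troponin, was at 16881, 13892 and 17667 TPM and Tpm1, the alpha tropomyosin that covers the myosin sites on actin, was at 18039, 13395 and 8874 TPM. Tnnc2, the calcium sensor of fast troponin, was at 12664, 10936 and 9819 TPM. The fast troponin subunits stayed within 1.36-fold between libraries, whereas Tpm1 differed by 2.03-fold. Thick filament genes held 4.62% ± 0.781. Myl1, the fast essential light chain, was at 15911, 13801 and 5757 TPM, much lower in replicate 3. Titin and the Z-disc, the anchor of the thin filaments, held 2.08% ± 0.671, with 1.68%, 1.71% and 2.86% in the libraries. Of its 30 genes 22 (73.3%) were highest in replicate 3 in TPM, near the 72.9% of all genes. With TMM, 16 (53.3%) were highest there, against 35.7%. Its leading genes were Tcap, the telethonin that caps titin (2751, 3050 and 3994 TPM), Actn3 and Ttn. Des, the desmin that links neighboring Z-discs, was at 1119, 1094 and 2170 TPM, and Neb, the nebulin of the thin filament, was at 1135, 1616 and 1942 TPM.

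Upstream sequence is shown for 3 of these leading genes, Acta1, Mylpf and Myh4, chosen because their windows hold the motifs marked, and taken from the RefSeq promoter table of GRCm38.p6. Each run is the 120 bases before the annotated start in the direction of the gene. Capitals mark TATAAA, the TATA box, and CAGCTG, an E-box of the kind bound by myogenic factors. The coordinates are chr8:123894776-123894895 (minus strand) for Acta1, chr7:127211488-127211607 (plus strand) for Mylpf and chr11:67237692-67237811 (plus strand) for Myh4.
Acta1: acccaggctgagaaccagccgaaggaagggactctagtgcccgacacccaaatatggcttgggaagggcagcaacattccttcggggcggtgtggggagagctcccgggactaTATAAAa
Mylpf: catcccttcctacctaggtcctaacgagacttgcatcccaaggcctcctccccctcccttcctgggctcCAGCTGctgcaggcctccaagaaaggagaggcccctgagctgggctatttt
Myh4: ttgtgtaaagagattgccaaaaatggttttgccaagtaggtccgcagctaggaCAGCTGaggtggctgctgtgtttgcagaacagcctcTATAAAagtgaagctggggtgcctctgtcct
Over the 250 bases before the start and on both strands, CAGCTG was found in 30.4% of the 69 promoters of sarcomere genes, in 22.7% of the 97 promoters of the highest nuclear protein-coding genes and in 13.0% of all 32851 promoters. TATAAA was found in 20.3%, 10.3% and 12.4% of the same promoters. A loose MEF2 pattern, CTA and TAG with any 4 bases between them, can hold TATAAA within it. It was found in 15.9%, 4.12% and 3.20%, and a match need not be a MEF2 site. A nearer background is the 13721 promoters of nuclear protein-coding genes with a TPM value. There CAGCTG was found in 12.4%, TATAAA in 7.08% and the MEF2 pattern in 2.94%. For TATAAA, the 10.3% of the highest genes thus lay above this background and below that of all promoters. Among the 76 promoters of cytosolic ribosomal protein genes, the shares were 3.95% for CAGCTG, 6.58% for TATAAA and 0% for the MEF2 pattern. Of the 20 highest nuclear protein-coding genes, 16 had a promoter sequence. Of their 21 promoters, 9 held CAGCTG, 4 held TATAAA and 0 held the MEF2 pattern. Tpm1, Aldoa and Tnnc2, which ranked above Myh4, held none of the 3 motifs. The letters describe the windows and were not related to any measure of binding.

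The files list several transcript identifiers in a row but 1 value for the gene, so isoforms are described here as paralogs, each a gene of its own. Among the myosin heavy chains, the motors of the thick filament, Myh4 (type 2B, the fastest) held 74.7%, 65.2% and 55.5% of the family's TPM (mean 65.1% ± 9.64). Its level was 8721, 9581 and 7053 TPM. Myh1 (type 2X) held 22.1%, 31.2% and 33.7%, with 2576, 4590 and 4283 TPM. Myh2 (type 2A) held 2.28%, 2.42% and 9.49%, and its level in replicate 3, 1207 TPM, was far above the 266 and 355 TPM of the other libraries. Myh8, the perinatal form, was at 101, 156 and 129 TPM and Myh3, the embryonic form, at 3.94, 7.63 and 17.1 TPM. Myh7, the slow form, was at 0.278, 0.355 and 25.4 TPM, below 1 TPM in replicates 1 and 2. Myh6 and Myh7b, the other members of the slow and cardiac type, were at 0.182, 0.401 and 1.85 TPM and at 0.193, 0.192 and 0.713 TPM.

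In 10 of the other 14 families the fast or skeletal paralog held over 90% of TPM in every library. The mean share was 99.9% for Tnni2 over Tnni1, 99.9% for Tnnt3 over Tnnt1 and Tnnt2, and 99.8% for Tnnc2 over Tnnc1. Acta1 held 99.8% ahead of Actc1, the cardiac actin, which was at 30.8, 79.4 and 3.61 TPM. Atp2a1, the fast calcium pump, held 99.6% over Atp2a2 and Atp2a3. Myl1 held 99.2% over Myl3, the slow form (54.5, 48.2 and 44.0 TPM), and Myl4, the embryonic form (9.75, 19.1 and 51.5 TPM). Mylpf held 98.9%, and Myl2, its slow counterpart, held 0.0153% and 0.0202% in replicates 1 and 2 and 3.27% in replicate 3. Myl7, the atrial form, had 0 counts in every library, and the cardiac genes Tnni3 (0, 0 and 4 counts) and Mybpc3 (2, 0 and 19 counts) were nearly as low. The same single-paralog pattern held for enzymes. Eno3, the muscle enolase, held 99.0% over Eno1 and Eno2, Pgam2 held 99.2% over Pgam1, and Ckm held 94.2% over the mitochondrial Ckmt2 (5.82%), with Ckb at 4.67 TPM and Ckmt1 at 0, 0 and 4 counts.

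In other families the paralogs shared the level more evenly. Mybpc2, the fast myosin binding protein C, held 70.6%, 47.8% and 45.1%, and Mybpc1, the slow form, held the rest and was the higher of the pair in replicates 2 and 3. Actn3, the alpha-actinin of fast Z-discs, held 90.0%, 82.7% and 72.9%, while its own level was steady at 2834, 2498 and 2762 TPM. The difference lay in Actn2, the form of all fibers, at 314, 523 and 1027 TPM. Tpm1 held 88.9%, 80.6% and 74.7% of tropomyosin, Tpm2 held 10.9%, 19.1% and 24.1%, and Tpm3 and Tpm4 held under 1% each. In reads, the mean shares were 68.1% for Tpm1 and 31.2% for Tpm2, against 81.4% and 18% in TPM. Casq1, the calcium store protein of the fast reticulum, held 98.1%, 95.1% and 89.5% over Casq2.

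Slow fiber genes differed most between libraries of the muscle lists, by summed TPM. Their 11 genes summed to 153, 183 and 1289 TPM, and without replicate 3 the mean was 168 TPM in place of 542. The summed TPM of the fast list was 802-fold, 594-fold and 75.6-fold that of the slow list. Myl2 was at 2.89, 3.59 and 423 TPM, the largest ratio between libraries of any gene at a mean of 10 TPM or more (146-fold). Myoz2, the slow calsarcin of the Z-disc, was at 31.1, 27.0 and 512 TPM. Tnnc1, Tnnt1 and Tnni1, the slow troponin subunits, were at 2.36, 3.04 and 42.8 TPM, at 2.17, 3.99 and 36.6 TPM and at 1.88, 7.27 and 24.1 TPM. Of the list, 9 of 11 genes (81.8%) were highest in replicate 3 on both scales, and the exceptions in TPM were Myl3 and Casq2. The shares over all genes at a mean of 10 TPM or more were 72.9% in TPM and 35.7% with TMM. In whole muscle, more cells of a type and more RNA per cell cannot be told apart.

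**Figure D3:**
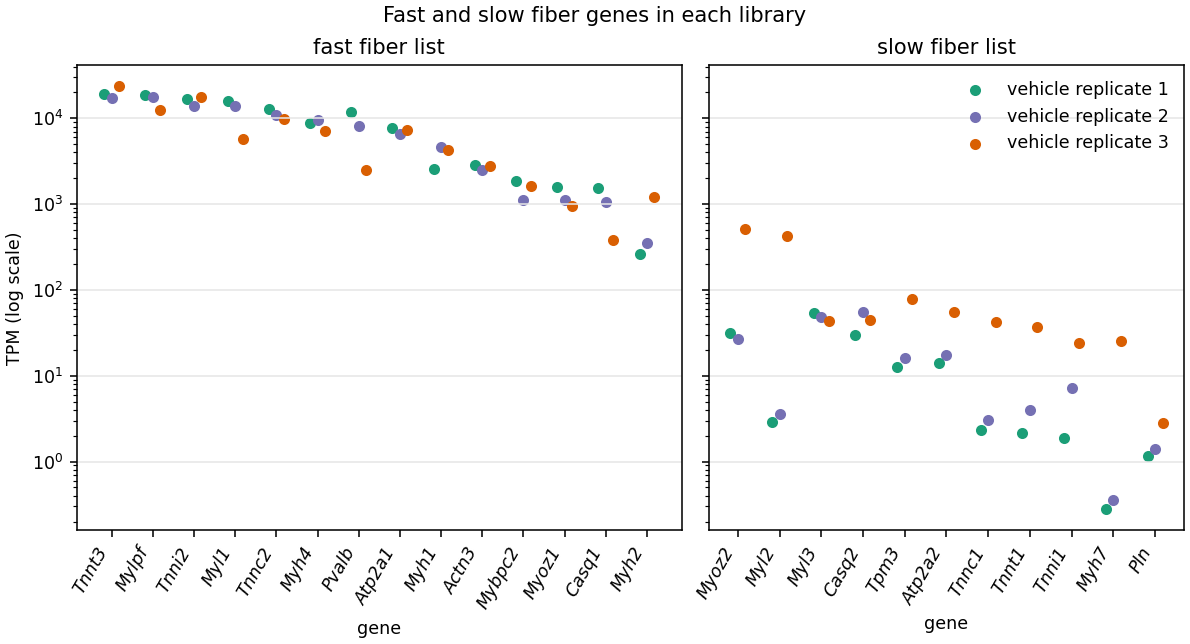
TPM (y axis, log scale) of each gene of the fast fiber list (left) and the slow fiber list (right) in the 3 vehicle libraries, 1 point per library. The libraries lie close together for most fast genes, and replicate 3 lies above the other libraries for 9 of the 11 slow genes.

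Calcium handling genes, 25 in all, held 2.51%, 1.95% and 1.43% of TPM. Pvalb, the calcium buffer parvalbumin that speeds relaxation of fast fibers, was at 11885, 8214 and 2511 TPM and fell from rank 17 in replicate 1 to rank 29 in replicate 3. Atp2a1, the pump that returns calcium to the reticulum, was steady at 7777, 6556 and 7357 TPM. Casq1 was at 1536, 1060 and 381 TPM. Srl, the reticulum protein sarcalumenin, was at 514, 389 and 410 TPM. Ryr1, the release channel of the reticulum, and Cacna1s, its voltage sensor, were at 381 ± 40.3 and 251 ± 38.0 TPM. The buffers Pvalb and Casq1 thus spread by more than 4-fold, while the pump and the channel differed by less than 1.3-fold.

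Of the energy lists, every one but glycogen had its lowest summed TPM in replicate 3. With TMM the glycogen list was lowest there too. The log2 of its sum over its mean in the libraries was 0.25, 0.13 and -0.48 with TMM. In TPM it was 0.12, -0.12 and -0.018. The creatine and adenylate list held 2.47%, 1.80% and 1.35% of TPM, and glycolysis held 3.32%, 2.71% and 2.16%. Aldoa, the aldolase of muscle, was at 14750, 11807 and 12023 TPM, the highest enzyme of glycolysis. Eno3 (5574, 4010 and 2268 TPM), Gapdh (2339, 1926 and 1253 TPM) and Pkm, the pyruvate kinase (1842, 1838 and 916 TPM), were lowest in replicate 3. Ckmt2, the creatine kinase of mitochondria, was at 1355, 1256 and 501 TPM. Ak1, the adenylate kinase, was at 808, 614 and 354 TPM, and Adssl1, a synthase of the purine nucleotide cycle, was at 420, 337 and 431 TPM. For glycogen, Pygm, the muscle phosphorylase, was at 1987, 1651 and 1102 TPM, whereas Ugp2, which makes UDP-glucose, was at 496, 454 and 1142 TPM and Gyg, the primer glycogenin, at 232, 183 and 383 TPM. Ppp1r3a, a glycogen targeting subunit of protein phosphatase 1, stayed near 264 ± 18.8 TPM.

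The 80 nuclear-encoded genes of oxidative phosphorylation were steadier than most genes in TPM. They held 4.72%, 4.40% and 3.93% of TPM, and the median ratio of the highest to the lowest library was 1.31, against 1.58 over all genes at a mean of 10 TPM or more. Their mean levels ran from 2.02 to 1901 TPM with a median of 375, and 58 of the 80 had a ratio under 1.5. Atp5b, the catalytic subunit of ATP synthase, was at 1991, 2111 and 1600 TPM. Ndufa4, a subunit of cytochrome c oxidase, was at 1802, 1682 and 1603 TPM, and Atp5e, the epsilon subunit of ATP synthase, was at 1350, 1387 and 1415 TPM. Atp5a1, the alpha subunit, was at 1426, 1446 and 1147 TPM. By contrast, the 13 mitochondrially encoded subunits had a median ratio of 2.24. On the TMM scale, 78 of the 80 nuclear genes were highest in replicate 1 or 2, and 2 in replicate 3. The log2 of their sum over its mean in the libraries was 0.22, 0.22 and -0.57 with TMM. In TPM it was 0.12, 0.017 and -0.15, so the small spread of this list belongs to the TPM scale.

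Of the other mitochondrial lists, the TCA cycle held 0.483%, 0.529% and 0.390% of TPM, and 13 of its 18 genes were highest in replicate 2. Among its leading genes were the malate dehydrogenases Mdh1 (534, 578 and 408 TPM) and Mdh2 (479, 587 and 269 TPM) and Idh3b (435, 474 and 315 TPM). Slc25a4, the carrier that exchanges ADP and ATP across the inner membrane, was at 3987, 3605 and 2616 TPM, and Vdac1, the pore of the outer membrane, at 815, 811 and 553 TPM. Mb, the oxygen store myoglobin, was at 3762, 4033 and 1857 TPM. Fabp3, the fatty acid binding protein of muscle, was at 578, 397 and 318 TPM, while Cd36, the fatty acid importer of the membrane, was at 216, 226 and 326 TPM. Cpt1b, which admits fatty acids to mitochondria, was nearly constant in TPM at 132, 130 and 128, and it was named after its values were seen.

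**Figure D4:**
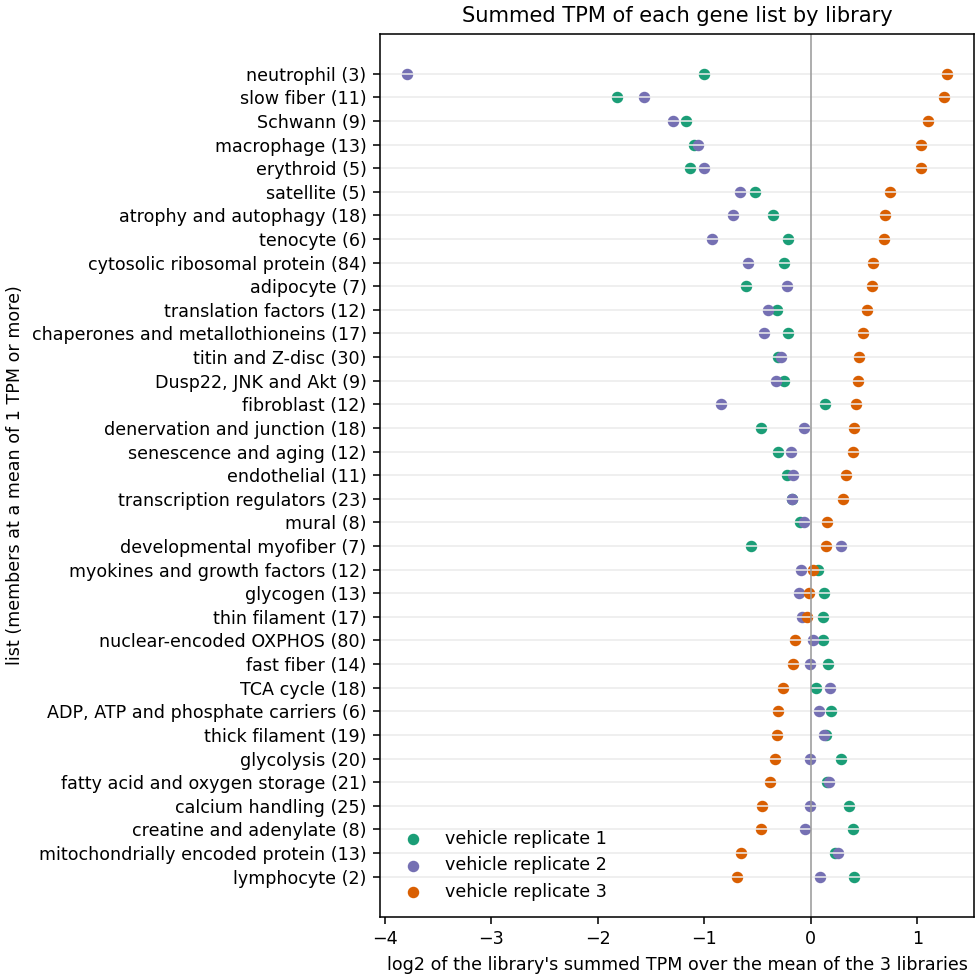
Log2 of the summed TPM of each gene list (members at a mean of 1 TPM or more) in a library over its mean in the 3 vehicle libraries (x axis), with 1 row per list and 1 point per library. Lists are ordered by replicate 3, which lies lowest for the lymphocyte, mitochondrially encoded protein, creatine and calcium handling lists and highest for the neutrophil, slow fiber, Schwann, macrophage and erythroid lists.

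Nearly all cytosolic ribosomal protein genes were highest in replicate 3. The 85 cytosolic ribosomal protein genes held 4.88% ± 2.15 of TPM, summing to 40942, 32391 and 73025 TPM, and 83 of the 84 at 1 TPM or more were highest in replicate 3 (76 of 84 with TMM). Their median ratio between libraries was 2.27, and it was at least 2 for 69 genes. Rplp1, an acidic protein of the ribosomal stalk, was at 1168, 1094 and 2191 TPM. Rpl26, of the large subunit, was at 988, 791 and 1909 TPM, and Rps14, of the small subunit, was at 1031, 791 and 1645 TPM. Of 12 translation factors, 9 (75%) were highest in replicate 3 in TPM, near the 72.9% of all genes at a mean of 10 TPM or more. With TMM, 6 (50%) were highest there, against 35.7%. Tpt1, a translationally controlled protein of growth, was at 2063, 2078 and 3802 TPM and Eef1a1, the broadly expressed elongation factor, at 543, 644 and 1401 TPM. Eef2, the translocase, was at 595, 440 and 998 TPM and Eef1g, of the exchange complex, at 389, 288 and 383 TPM. Eef1a2, the elongation factor of adult muscle, did not follow, at 156, 152 and 152 TPM. Eif4ebp1, a repressor of cap-dependent translation, was at 36.0, 37.3 and 318 TPM. Eef1a2 and Eif4ebp1 were named after their values were seen.

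Regulators lay far below the structural genes. The 24 transcription regulators held 0.0877% ± 0.0177 of TPM. Myf6, the myogenic factor of mature fibers, led them at 125, 147 and 334 TPM, and Mef2c, its partner in muscle gene activation, was at 160, 167 and 148 TPM. Tbx15, a factor of glycolytic fibers, was at 124, 106 and 139 TPM and Mef2a at 49.7, 57.6 and 67.0 TPM. Of 23 at a mean of 1 TPM or more, 13 (56.5%) were highest in replicate 3 in TPM and 5 (21.7%) with TMM. Both shares lay below those of all genes at a mean of 10 TPM or more, 72.9% and 35.7%.

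Genes of protein breakdown summed to 3451, 2652 and 7124 TPM. In TPM, 16 of 18 (88.9%) were highest in replicate 3, against 72.9% of all genes at a mean of 10 TPM or more. With TMM, 12 of 18 (66.7%) were highest there, against 35.7%. Ubb, which encodes a chain of ubiquitins, was at 609, 417 and 939 TPM. Sqstm1, the autophagy receptor p62, was at 464, 359 and 880 TPM. Trim63, the ubiquitin ligase MuRF-1 that targets sarcomere proteins, was at 242, 177 and 1082 TPM. Fbxo32, which encodes the ligase atrogin-1, was at 130, 95.2 and 490 TPM, and Bnip3, a receptor of mitophagy, was at 185, 186 and 794 TPM, and both were named after their values were seen. Replicates 1 and 2 lay close together for these 3 genes, and replicate 3 was over 3 times the next library. Map1lc3a and Fbxo40, also named after their values were seen, stayed at 306 ± 15.4 and 159 ± 13.2 TPM.

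Genes that rise in denervated fibers or sit at the nerve contact summed to 290, 383 and 529 TPM, and replicate 2 was highest in place of replicate 3 with TMM. Gadd45a, a stress gene that is known to rise after denervation, was at 55.4, 134 and 204 TPM. Scn4a, the adult sodium channel, was at 113, 87.4 and 95.5 TPM, and Chrnb1 and Musk, of the postsynaptic membrane, were at 25.4, 37.5 and 48.5 TPM and at 13.0, 16.7 and 32.7 TPM. Chrng, the fetal receptor subunit, had 15, 51 and 18 counts. Of 12 senescence genes, 9 (75%) were highest in replicate 3 on both scales. The share over all genes at a mean of 10 TPM or more was 72.9% in TPM and 35.7% with TMM. The sum of the list was highest in replicate 3 in TPM but lowest there with TMM. Igfbp7 (41.5, 44.5 and 96.9 TPM), Igfbp5 (69.7, 72.0 and 25.2 TPM) and Cdkn1a, the cell cycle inhibitor p21 (5.66, 22.1 and 39.0 TPM), led with Cdkn1b, and Cdkn2a, the p16 locus, had 8, 0 and 8 counts. The inflammatory genes Il6 and Tnf had 0, 3 and 75 counts and 12, 0 and 9 counts.

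Of 17 chaperones and metallothioneins, 15 (88.2%) were highest in replicate 3 in TPM and 8 (47.1%) with TMM. The shares over all genes at a mean of 10 TPM or more were 72.9% and 35.7%. Hspa8, the constitutive HSC70, was at 785, 619 and 1051 TPM and Cryab, the small heat shock protein that guards desmin, at 644, 387 and 756 TPM. Hspb8 was at 458, 492 and 538 TPM and Txnip, the inhibitor of thioredoxin, at 418, 421 and 374 TPM. Mt1 and Mt2, which bind zinc and rise with glucocorticoids and metals, were at 24.3, 29.3 and 718 TPM and at 6.13, 9.67 and 224 TPM, so that replicate 3 was over 20 times the others. Secreted factors were low, with Sparc at 54.3, 52.6 and 80.0 TPM, Vegfa at 54.4, 63.4 and 45.8 TPM, Mstn, the growth inhibitor myostatin, at 31.2, 17.4 and 36.0 TPM and Vegfb at 32.3, 31.3 and 18.5 TPM. Fgf21 had 0, 2 and 0 counts.

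Of the target of the study's compound and its pathway, some genes were steady in TPM across these mice and others were not. In TPM, 6 of 9 (66.7%) were highest in replicate 3, and with TMM 3 of 9 (33.3%). These shares were near those of all genes at a mean of 10 TPM or more, 72.9% and 35.7%. Dusp22 was at 35.1, 36.9 and 32.7 TPM (mean 34.9 ± 2.15, rank 2023). Map2k4, a kinase that activates JNK, was at 31.9, 32.3 and 32.1 TPM, among the 10 genes with the smallest TPM ratio between libraries. Mapk8 (JNK1) was at 12.5, 12.3 and 12.1 TPM and Mapk9 (JNK2) at 15.2 ± 2.62 TPM, while Mapk10 (JNK3), which is largely neuronal, was at 0.116 TPM. Akt2 and Akt1, kinases of insulin signaling, were at 69.0, 59.1 and 91.1 TPM and at 30.8, 24.0 and 57.7 TPM. Jun, a target of JNK, was at 44.9, 47.6 and 80.2 TPM, and Fos, its partner, was at 5.47, 7.97 and 82.5 TPM. Mapk8, Mapk9, Mapk10 and Fos were named after their values were seen.

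Markers of other cell types differed between libraries, and those of macrophages, neutrophils, red cells and Schwann cells were highest in replicate 3. All 13 macrophage genes were highest there on both scales, and their sum was 158, 161 and 690 TPM. Lyz2, a lysozyme of myeloid cells, was at 74.0, 78.8 and 354 TPM, C1qa of complement at 13.6, 14.1 and 58.5 TPM and Ctss, a cathepsin, at 11.8, 16.1 and 55.5 TPM. Of the neutrophil list, S100a8 (70.4, 11.6 and 412 TPM) and S100a9 (92.1, 11.8 and 385 TPM), the subunits of calprotectin, carried the sum, and all 3 genes at 1 TPM or more were highest in replicate 3 on both scales. The granule genes Ltf, Ngp, Camp, Mpo and Elane had 0 to 14 counts in replicates 1 and 2 and 1211, 1036, 494, 178 and 35 counts in replicate 3, and were named after their counts were seen. All 5 erythroid genes with a value were also highest there on both scales. Hbb-bs and Hba-a1, the adult globins, were at 887, 947 and 4074 TPM and at 393, 432 and 1756 TPM, and Slc4a1, the red cell anion exchanger, had 31, 20 and 1140 counts. The paired globin genes, Hbb-bs with Hbb-bt and Hba-a1 with Hba-a2, are close copies whose reads may have been split. Ighm, an immunoglobulin heavy chain, went the other way at 56.8, 37.0 and 13.3 TPM, whereas the light chain Igkc was at 5.14, 13.3 and 15.1 TPM, and the T and B cell genes Cd3d, Cd3e, Cd3g, Cd4, Cd8a, Cd79a and Ms4a1 had at most 11 counts in any library.

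Of the cell type lists, the endothelial and mural genes differed least between libraries in summed TPM. Counts of genes highest in replicate 3 stand against 72.9% of all genes in TPM and 35.7% with TMM. Endothelial genes summed to 130, 134 and 190 TPM and mural genes to 409, 419 and 486 TPM, with replicate 2 highest for both with TMM. Pecam1, an endothelial adhesion protein, ranged from 19.9 TPM in replicate 1 to 36.6 TPM in replicate 3, and Rgs5, a pericyte gene, was at 268, 277 and 285 TPM. Fibroblast genes were lowest in replicate 2 in sum, with 8 of 12 highest in replicate 3 in TPM and 6 of 12 with TMM, and their leading genes Gsn and Dcn, the matrix proteoglycan decorin, were at 521, 243 and 569 TPM and at 456, 196 and 676 TPM. Tendon genes were also lowest in replicate 2 in sum, with 5 of 6 highest in replicate 3 in TPM and 4 of 6 with TMM. Examples were Thbs4 at 49.8, 29.1 and 76.9 TPM and Scx, the tendon transcription factor, at 5.77, 7.92 and 36.8 TPM. Of the Schwann cell list, 9 of 9 genes at 1 TPM or more were highest in replicate 3 on both scales, led by Pmp22 and Mbp of myelin at 11.3, 11.6 and 40.8 TPM and at 6.21, 4.87 and 31.9 TPM. Of 7 fat cell genes, 7 were highest in replicate 3 in TPM and 6 with TMM. They ranged from Fabp4, which endothelial cells also express, at 291, 377 and 469 TPM, to Cfd, the adipsin, at 6.66, 8.68 and 163 TPM and Adipoq, the adiponectin, at 1.14, 1.43 and 15.5 TPM. The 8 genes of the satellite cell list summed to 71.0, 64.4 and 170 TPM. Of its 5 genes at 1 TPM or more, 4 were highest in replicate 3 in TPM and 3 with TMM. Pax7, the transcription factor of satellite cells, went the other way and was below 1 TPM in every library (0.376, 0.490 and 0.215 TPM). Of the skin keratins, Krt1, Krt5 and Krt14 had 0 counts in every library, and Krt10 had 34, 26 and 46 counts. With total counts of 39793301 and more, 0 counts allow up to 3 counts in a library, which covers counting error only. The part of these cell types in the levels of replicate 3 was not tested.

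Over the 5507 genes at a mean of 10 TPM or more, the median coefficient of variation between the mice was 24.1%. The common biological coefficient of variation, the spread beyond counting error that edgeR estimated from counts of 14998 genes, was 0.307. Without replicate 3 it was 0.188, and without replicate 1 or 2 it was 0.339 or 0.353. The median ratio of the highest to the lowest library was 1.58, and it was at least 2 for 1327 genes (24.1%). Of these, 1131 were highest in replicate 3, 136 in replicate 1 and 60 in replicate 2. High level did not bring low spread. The median coefficient of variation was 29.5% at 1 to 10 TPM, 23.7% at 10 to 100, 26.9% at 100 to 1000 and 29.6% for the 78 genes at 1000 TPM or more.

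**Figure D5:**
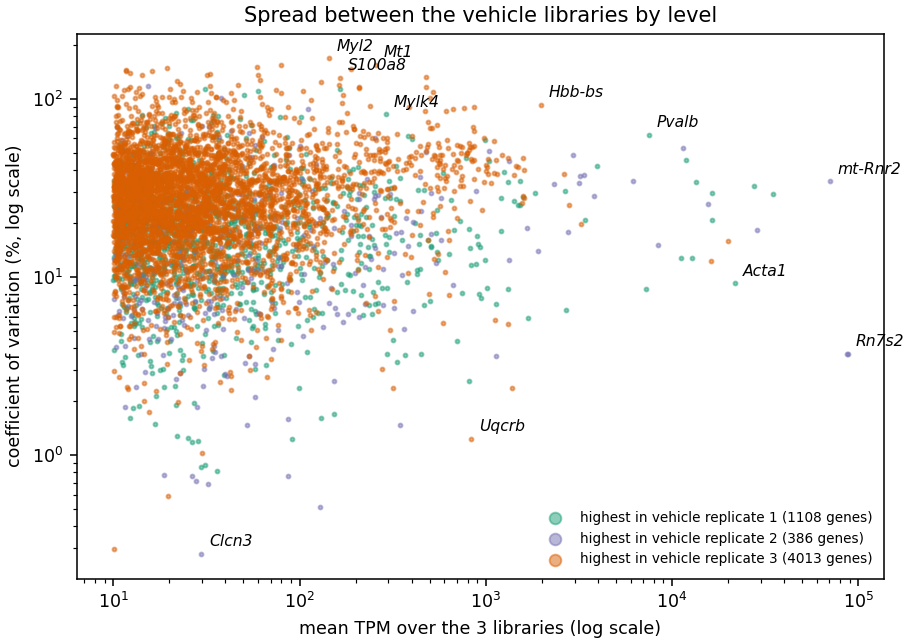
Coefficient of variation between the 3 vehicle libraries (y axis, %, log scale) against mean TPM (x axis, log scale) for the 5507 genes at a mean of 10 TPM or more, colored by the library with the highest TPM. The spread is wide at every level, from 0.279% for Clcn3 to 169% for Myl2.

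The 10 genes with the largest ratio between libraries were Myl2 (146-fold), the pseudogene Gm9247 (76.6-fold), Mt2 (36.5-fold), S100a8 (35.7-fold), the acute phase protease inhibitor Serpina3n (34.4-fold), S100a9 (32.7-fold), Mt1 (29.5-fold), Cfd (24.5-fold), the lymphoid chemokine Cxcl13 (22.3-fold) and Actc1 (22-fold). Of these 10 genes, 9 were highest in replicate 3, and Actc1 was highest in replicate 2. Mylk4, a kinase related to the myosin light chain kinases, was lowest in replicate 3 at 485, 363 and 24.7 TPM, and it was named after its values were seen. The 10 genes with the smallest ratio in TPM were Clcn3, Dennd1b, the pseudogene Gm10221, Snrk, Tom1l2, Map2k4, Wwp1, Fam160a1, Rnf128 and Lonp1. All lay within 1.02-fold. This order is one of TPM, in which the median gene was raised in replicate 3 (log2 0.28), and was not formed on the TMM scale. Clcn3, a chloride and proton exchanger of endosomes, was at 29.6, 29.7 and 29.7 TPM. Wwp1, a ubiquitin ligase, was at 86.2, 87.2 and 85.9 TPM and Lonp1, the protease of the mitochondrial matrix, at 36.3, 36.0 and 35.7 TPM. Among genes above 500 TPM, the smallest ratio was that of Uqcrb, a subunit of complex III, at 824, 828 and 844 TPM, named after its values were seen.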

How the data were processed

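Total RNA from the TA muscle of 3 vehicle-treated mice was sequenced, 1 library per mouse. Per the labels and the study's methods, the authors quantified genes with StringTie 2.1.3b after mapping to mm10 with HISAT2 2.1.0 and trimming with Trimmomatic 0.38 (Bowtie2, version 2.3.4.1, is named without a role). The authors deposited raw read counts for 45777 genes, without normalization, and TPM values for 16800 of them. The use of strand, the annotation and the treatment of multi-mapped reads are not given in the sources used here.

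Shares, ranks, means and SD were computed from TPM, and the dispersion from counts with edgeR 4.0.16 (R 4.3.3; filterByExpr, TMM, intercept only). The common dispersion was checked on simulated counts. No groups were compared by a test. Gene classes and chromosomes came from the RefSeq table of GRCm38.p6 (16761 of 16800 genes matched), and the TrnS1 sequence and coordinates and the comparison of the 7SL transcripts from GENCODE. Some items are not reported here. The named genes are the 30 highest, the 4 highest of each list and members at 0, all family members, and the 10 genes with the largest and the 10 with the smallest ratio between libraries. Other genes were named after their values were seen. The lists were chosen with earlier results of these data known, and the ribosomal protein list was formed by symbol once values were known. Promoter shares of the 100 highest nuclear protein-coding genes leave out genes on chromosome 18. Promoter sequences covered 77 of these genes, 57 sarcomere genes and 64 ribosomal protein genes, and a gene could have several. Plots were made in matplotlib 3.10.9.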

Additional observations from a re-analysis of the deposited data

How the results depend on the processing

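No paired analysis was possible because only the vehicle group was described and no result comes from a test. The count of genes detected was 4613 at a minimum of 10 TPM, against 11455 at 1 TPM, and lay between 11609 and 11778 when any 1 library was left out. The share of the 10 highest genes was 31.2% in reads, 28.7% among protein-coding genes and, in an alternative added after the data were seen, 25.7% among nuclear protein-coding genes, against 41.5% in TPM, and between 39.1% and 44.1% with a library left out. Nuclear protein-coding genes held 81.8% of reads. Sarcomere genes held 26.8% of reads and 19% of TPM without the mitochondrially encoded genes, against 15.5%. The share of Myh4 lay between 60.3% and 70.0% with a library left out. The median ratio between libraries was 1.40 on the TMM scale, and the common biological coefficient of variation was between 0.188 and 0.353 with a library left out and 0.398 without the filter on low counts. The cause of these differences was not tested, beyond that TPM divides by length and reads do not. Depth limits only genes with few counts, such as the cytokines and T cell genes.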
